A study of Mus musculus with 5 samples.

Results

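The genes described here are 33 DNA replication and S phase genes, taken as a named list from the 15971 genes of a single-cell RNA sequencing table of the developing mouse cerebellum, and all 33 were present. The table holds 6987 cells in 5 libraries of a series that asks whether Group 3 and Group 4 medulloblastoma, childhood tumours of the cerebellum, arise from the rhombic lip, its dorsal germinal zone. The libraries are 1 titled EomesCreER at e16 (2676 cells, median 10346 UMIs per cell) and 4 titled RL, of which 2 are titled e13 (706 and 1818 cells) and 2 e14 (1046 and 741 cells), with medians of 15855 to 19970 UMIs. All are labelled cerebellum. The titles of the 4 RL libraries also carry the tag UT, which the labels do not explain. EomesCreER names an allele in which CreER, a Cre recombinase that tamoxifen switches on, is driven from Eomes. Strain, any treatment in plain words, any gate on the cells and the number of animals per library were not given in the sources used here, and RL e13 replicate 2 carries e14 in its age tag. A UMI (unique molecular identifier) counts 1 captured RNA molecule, and levels are given as CPM, UMIs per 1000000 of a cell, averaged over the cells of a class. CPM is not corrected for gene length, so levels are compared between cells and not between genes.

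Before a cell divides, its origins of replication are licensed when Cdc6 and Cdt1 load the ring-shaped Mcm2 to Mcm7 helicase onto DNA. Cyclin E and E2F transcription factors then drive entry into S phase, in which Cdc45 and the GINS complex start the helicase, the polymerases copy the strands around the Pcna clamp, and histone chaperones such as the Chaf1 proteins repackage the new DNA. In the cerebellum, Sox2 marks ventricular zone and rhombic lip progenitors, Atoh1 marks the granule neuron lineage and its dividing progenitors, and Eomes marks the unipolar brush cell lineage, most of which no longer divides.

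E2F sites in promoters are the best known link between many of these genes, so the promoters were searched for them. RefSeq promoters (build GRCm38.p6, 250 bases before to 50 after the start of the gene) were found for 27 of the 33 genes. The E2F site was searched as TTTCCCGC, TTTCGCGC, TTTGCCGC or TTTGGCGC on both strands, and overlapping matches were allowed. Some genes have more than 1 promoter, and a gene was counted when any of its promoters held a match. This was so for 10 of the 27 genes (37.0%): Cdc6, Cdt1, Mcm3, Mcm5, Mcm6, Mcm7, Pola1, Rfc3, Lig1 and Uhrf1, of which Lig1 and Uhrf1 had the match only in their second promoter. The share was 8.33% among 12 G2 and M phase genes (1 gene), 4.49% among the 11415 genes of the expression table with a promoter and 2.61% among all 27025 genes with one. The CCAAT box (CCAAT) was found for 17 of the 27 genes (63.0%), for 12 of 12 of the G2 and M phase genes, for 42.8% of the genes of the table and for 41.1% of all genes. The CHR element (TTTGAA or TTTAAA) was found for 7 of 27 (25.9%), for 11 of 12, for 22.4% and for 30.6%, so that the share lay between the last 2 backgrounds. A match describes the letters in the window and is not a measured binding site.

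Shown are 160 bases of 3 promoters, 5′ to 3′ on the strand of the gene, with E2F matches in capitals: Mcm6, whose class differences were among the largest, Mcm5, which has a pair of overlapping matches like Mcm6, and Rrm2, which has no match and differed from Mcm6 in direction between cell cycle categories and, without a call, in cycling Eomes cells. The stretches lie at chr1:128359706-128359865 (minus strand), chr8:75109349-75109508 (plus strand) and chr12:24708094-24708253 (plus strand) of GRCm38.
Mcm6: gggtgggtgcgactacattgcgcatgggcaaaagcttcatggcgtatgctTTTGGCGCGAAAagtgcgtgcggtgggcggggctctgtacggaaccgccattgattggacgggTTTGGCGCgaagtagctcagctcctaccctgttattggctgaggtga
Mcm5: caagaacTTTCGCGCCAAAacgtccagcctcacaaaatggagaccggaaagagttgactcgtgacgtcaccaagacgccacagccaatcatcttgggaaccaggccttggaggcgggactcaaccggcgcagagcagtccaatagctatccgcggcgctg
Rrm2: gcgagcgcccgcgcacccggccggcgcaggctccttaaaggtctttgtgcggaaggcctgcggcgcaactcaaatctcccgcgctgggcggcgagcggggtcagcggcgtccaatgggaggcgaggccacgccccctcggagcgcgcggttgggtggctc

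Cells were put into classes by whichever of Sox2, Atoh1 and Eomes had the most UMIs, with 2 or more needed, so that no replication gene was used to define a class. The 4 RL libraries held 140 to 607 Sox2 progenitors and 124 to 890 Atoh1 cells, RL e13 replicate 2 and the RL e14 libraries held 115 to 148 Eomes cells, and the e16 library held 2319 Eomes cells and 27 Atoh1 cells. RL e13 replicate 1 held 3 Eomes cells and the e16 library 10 Sox2 progenitors, too few for a profile. The summed level of 8 Sox2 progenitor markers (among them Hes5, Fabp7 and Slc1a3) was 5623 to 8569 CPM in Sox2 progenitors and 392 to 565 CPM in the Atoh1 cells of 3 RL libraries, but 1878 CPM in those of RL e13 replicate 1. Neuronal differentiation genes (Dcx, Tubb3, Stmn2 and 5 others) summed to 306 to 408 CPM in Sox2 progenitors, 1085 to 4478 CPM in Atoh1 cells and 11042 to 13001 CPM in Eomes cells. Markers of microglia, meninges and oligodendrocytes summed to at most 21.7 CPM in any of these profiles, and roof plate and choroid plexus markers to at most 171 CPM. The libraries shared 6 cell barcodes.

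Every one of the 33 genes was detected in all 3 classes. Their summed level in Sox2 progenitors was 3287 CPM in RL e13 replicate 1, 2839 in RL e13 replicate 2, 3249 in RL e14 replicate 1 and 2166 in RL e14 replicate 2, a mean of 2886 ± 521 CPM (SD, n = 4). In Atoh1 cells the sum was 3306, 3117, 3221 and 3044 CPM in the same order, a mean of 3172 ± 115 CPM (SD, n = 4), and 2889 CPM in the e16 library. The range of the Atoh1 cells fell within that of the Sox2 progenitors except at its upper end, and RL e14 replicate 2 held the lowest Sox2 value. When cells were taken only if they had no UMI of the other gate genes, a choice made after seeing the data, the order of the means turned: Sox2 progenitors held 2789 CPM and Atoh1 cells 2710 CPM over RL e13 replicate 2 and the RL e14 libraries, the 3 with both classes, against 2752 and 3127 CPM under the main gate.

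Eomes cells held less of these transcripts in every library that had both classes. The sum in Eomes cells was 1316 CPM in RL e13 replicate 2, 1791 in RL e14 replicate 1 and 1137 in RL e14 replicate 2 (mean 1415 ± 338 SD, n = 3), and 594 CPM in the e16 library. The Eomes values lay below all Sox2 and Atoh1 values, and the e16 library was the lowest. In the e16 library 4.74% of Eomes cells were cycling, meaning that they held 2 or more UMIs of Mki67 and Top2a together, against 17.1% to 28.7% in the RL libraries. The shares were 37.1% to 54.8% in Sox2 progenitors and 43.5% to 51.7% in Atoh1 cells. Eomes profiles thus had both the lowest sums and the lowest shares of cycling cells. Among Atoh1 cells of the RL libraries the 2 measures did not run together. RL e13 replicate 1 had the smallest share (43.5%) and the largest sum (3306 CPM). The part of the cycling share in the sums was not tested.

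Dividing the cells by Mki67 and Top2a, which are not among the 33 genes, separated high and low sums within each class. Cycling cells had summed levels of 3868 ± 486 CPM in Sox2 progenitors (SD, n = 4), 4551 ± 509 CPM in Atoh1 cells (SD, n = 4) and 3403 ± 711 CPM in Eomes cells (SD, n = 3), with 2622 CPM in the e16 library. In cells with no UMI of either gene, a division added after the data had been seen, the sums were 1858 ± 312, 1716 ± 112 and 709 ± 104 CPM. Neuronal reference cells, defined in any class by Mapt, Stmn2 and Gap43 at a summed 1000 CPM or more and no UMI of Mki67 or Top2a, held 941, 1059 and 969 CPM in RL e13 replicate 2 and RL e14 replicates 1 and 2, and 475 CPM in the e16 library. This reference is not separate from the Eomes cells: it held 86 of 148, 70 of 115 and 89 of 129 Eomes cells of these RL libraries and 2127 of 2319 in the e16 library.

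**Figure D1:**
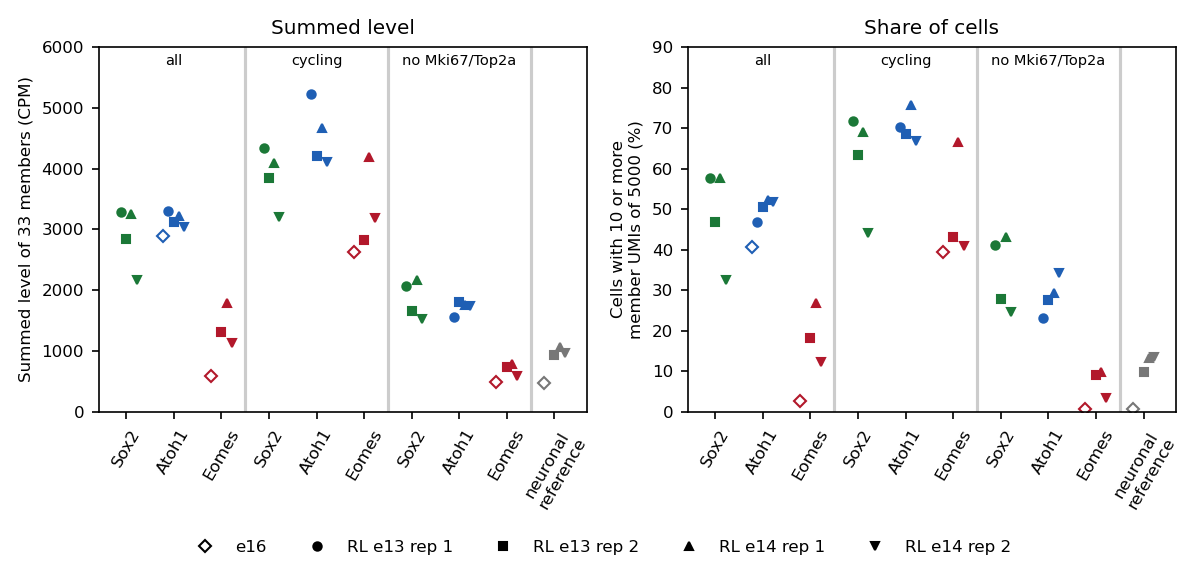
Summed level of the 33 genes in CPM (left) and percentage of cells with 10 or more of their UMIs after thinning each cell to 5000 UMIs (right), by class, in all cells, cycling cells, cells without Mki67 or Top2a UMIs and neuronal reference cells; each symbol is 1 library. In all cells the Eomes values (594 to 1791 CPM) lie below every Sox2 and Atoh1 value (2166 to 3306 CPM).

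Counting cells likewise put the Eomes cells lowest. After every cell had been thinned to 5000 UMIs, 10 or more UMIs of the 33 genes were found in 57.7%, 46.8%, 57.8% and 32.6% of Sox2 progenitors and in 46.8%, 50.4%, 52.3% and 51.9% of Atoh1 cells of RL e13 replicates 1 and 2 and RL e14 replicates 1 and 2. In Eomes cells the shares were 18.2%, 27.0% and 12.4% in RL e13 replicate 2 and the RL e14 replicates, and 2.70% in the e16 library (95% Wilson interval 2.11 to 3.44, counting error only). Neuronal reference cells of those libraries passed the same cut in 9.74%, 13.3%, 13.6% and 0.588% of cells, so the Eomes share of RL e14 replicate 2 was not above that background, which shares cells with it. Cells with 8 to 12 UMIs, near the cut, made up 15.2% of Sox2 progenitors, 16.2% of Atoh1 cells and 7.09% of Eomes cells on average over the RL libraries. Without thinning and with a cut at 2000 CPM, the mean shares were 47.0%, 49.1% and 18.1%.

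**Figure D2:**
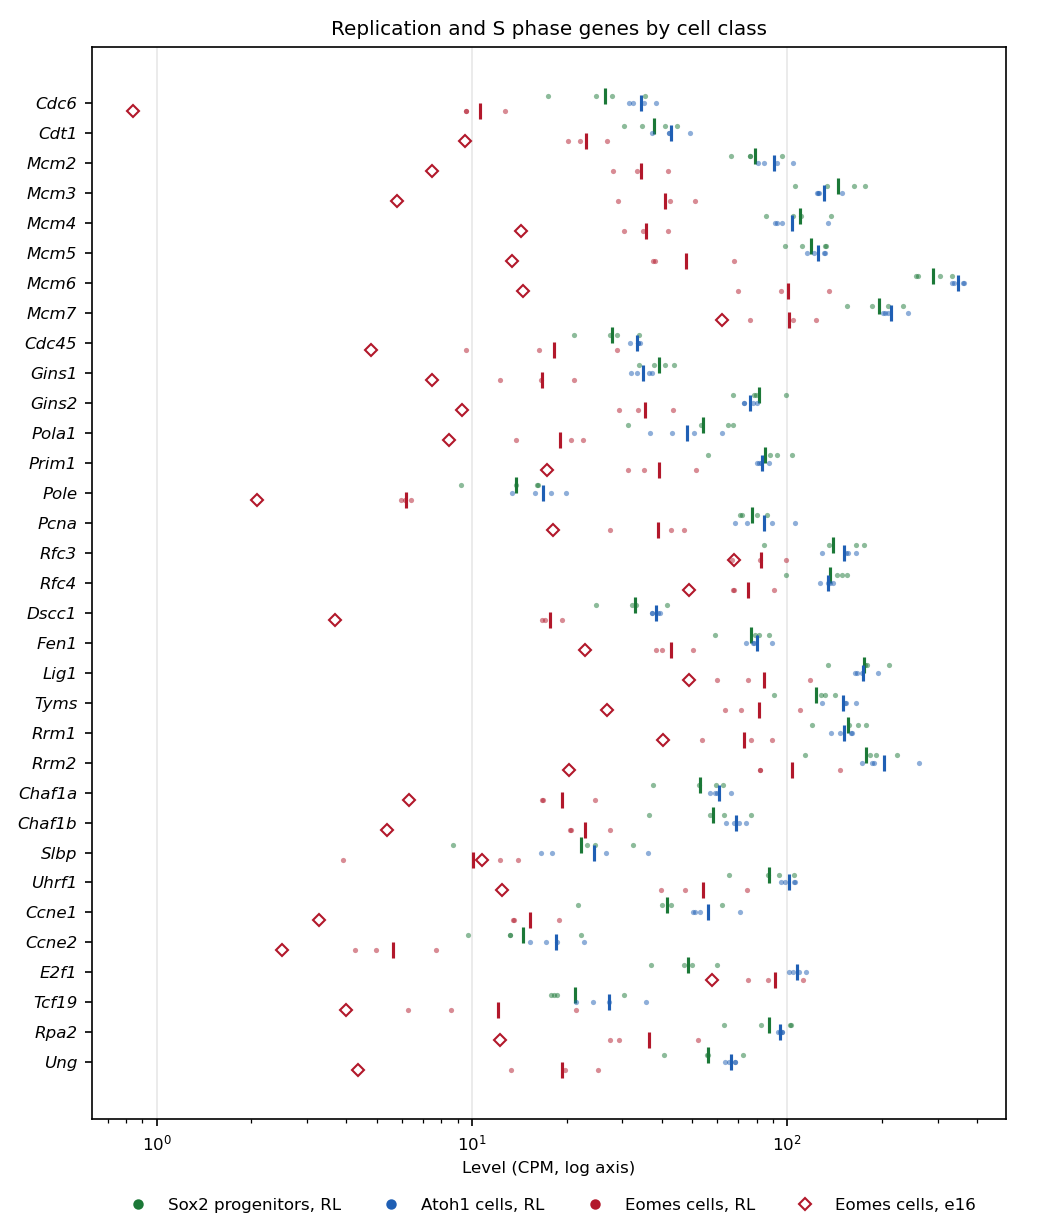
Level of each of the 33 genes in CPM on a log axis in Sox2 progenitors, Atoh1 cells and Eomes cells; small dots are RL libraries, vertical bars their mean and open diamonds the Eomes cells of the e16 library. The Eomes levels lie to the left for nearly all genes, and E2f1 and Slbp show the narrowest gaps to the Atoh1 levels. E2f1 in Eomes cells of the RL libraries (75.3 to 112 CPM) lies to the right of Sox2 progenitors (36.9 to 59.9 CPM). Cdc6 in the e16 Eomes cells is the lowest value at 0.844 CPM.

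Atoh1 cells were first compared with Sox2 progenitors of the same 4 RL libraries, which asks whether the replication program differs between these 2 classes. Most Atoh1 cells also held UMIs of Sox2 or Eomes. In RL e13 replicates 1 and 2, 18 of 124 and 259 of 890 had none. In RL e14 replicates 1 and 2, 173 of 556 and 131 of 374 had none. Among the genes called, E2f1, an activator of S phase genes, was higher in Atoh1 cells by the widest margin, followed by Tcf19, a G1/S gene, and Mcm6, a helicase subunit. Ccne1 (0.46, adjusted p = 0.0729) and Cdc6 (0.36, adjusted p = 0.0735) had larger differences than Tcf19 and were not called. E2f1, Tcf19 and Mcm6 were the only 3 of the 33 genes called higher by limma at an adjusted p under 0.05, and 0 were called lower, against 10.5% of all 8402 genes tested called higher and 16.9% called lower. Before adjustment, 7 of the 33 genes had a limma p under 0.05, of which 0 were lower. The median difference of the 33 genes was 0.17 on the log2(CPM + 5) scale, a scale that understates the differences of genes at low levels, against -0.04 for all genes, and 25 of 33 differences were above 0. The share of higher among all calls moved from 38.5% to 48.9% when profiles were scaled by median of ratios, which moved the median of all genes to 0.01.

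E2f1 had levels of 59.9, 47.0, 49.9 and 36.9 CPM in the Sox2 progenitors of RL e13 replicates 1 and 2 and RL e14 replicates 1 and 2. In Atoh1 cells of these libraries it had 104, 109, 115 and 101 CPM. The ranges did not overlap, the difference was 1.09 ± 0.10 on the log2 scale (SE, limma adjusted p = 0.000941, higher in 4 of 4 libraries), and the 27 Atoh1 cells of the e16 library held 125 CPM. The gene lies at chr2:154559407-154569892 on the minus strand of GRCm38 and overlaps no other annotated gene. It was called in all 13 alternative settings, with a largest adjusted p of 0.0144.

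Mcm6 had 305, 260.0, 334 and 256 CPM in Sox2 progenitors and 338, 363, 362 and 332 CPM in Atoh1 cells, in the same order of libraries. Its ranges touched, since RL e14 replicate 1 had 334 CPM in Sox2 progenitors and RL e14 replicate 2 had 332 CPM in Atoh1 cells, and the difference was 0.28 ± 0.07 (SE, limma adjusted p = 0.0326). Tcf19 had 18.2, 18.6, 30.3 and 17.8 CPM against 21.4, 24.3, 35.7 and 27.2 CPM, ranges that overlapped, with a difference of 0.30 ± 0.09 (SE, limma adjusted p = 0.0479). The count of genes called higher was 9 without RL e13 replicate 1 and 1 without any of the other 3 libraries, and RL e13 replicate 1 was the library whose Atoh1 cells held 1878 CPM of Sox2 progenitor markers. The part of these markers in the differences was not tested. Among cells with UMIs of no gate gene but their own, which left 18 Atoh1 cells in RL e13 replicate 1 and so dropped that library from the fit as well, E2f1 alone was called higher (1.28, adjusted p = 3.002e-06), while Mcm3 (-0.34), Gins1 (-0.35) and Pola1 (-0.46) were called lower (adjusted p = 0.0395, 0.0496 and 0.0155).

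Other regulators of the same step moved in both directions. Of 12 further E2F and pocket protein genes, 2 were called higher and 3 lower: E2f2, another activator, by 0.52 and the partner Tfdp2 by 0.36, against the E2F family members E2f5 (-0.86) and E2f6 (-0.39) and the pocket protein Rbl1 (-0.50). Of 37 further replication genes tested, 1 was called, Gmnn (geminin, the inhibitor of Cdt1), at -0.38 (adjusted p = 0.0283). Of 4 CDK inhibitor genes tested, Cdkn1c was called lower (-1.09), and of 15 G2 and M phase genes 0 were called by limma, with Ccnb2 alone under 0.05 before adjustment.

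Restricting the comparison to cycling cells, 52 to 304 Sox2 progenitors and 54 to 460 Atoh1 cells a library, brought 17 of the 33 genes above the threshold, and 0 were called lower. Of all 8307 genes tested 10.6% were called higher and 16.7% lower, and the median difference was 0.24 for the 33 genes against -0.05 for all genes. Before adjustment, too, 0 of the 33 genes were lower with a limma p under 0.05. The genes called were 6 of 8 licensing genes, all 4 G1/S regulators, 3 of 4 chromatin assembly and histone genes, Tyms and Rrm2 of 3 nucleotide supply genes, and both Rpa2, which coats single-stranded DNA, and Ung, the uracil-DNA glycosylase. None of the 3 helicase activation genes, 3 polymerase genes, 4 clamp and clamp loader genes and 2 Okazaki fragment genes was called. Dscc1 (0.26, limma adjusted p = 0.0640) and Cdc45 (0.24, adjusted p = 0.0724) were near the threshold. Their differences were larger than those of Chaf1a (0.22), Rpa2 (0.20) and Mcm5 (0.20), which were called. Others were near 0, such as Rfc4 (0.02) and Gins1 (-0.04). Here too median-of-ratios scaling moved the share of higher calls among all genes, from 38.8% to 51.6%, and gave 20 of the 33 genes called higher.

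E2f1 again showed the widest gap. Its levels were 64.7, 49.3, 47.7 and 43.5 CPM in cycling Sox2 progenitors and 112, 106, 125 and 100.3 CPM in cycling Atoh1 cells, with no overlap and a difference of 1.05 ± 0.10 (SE, limma adjusted p = 0.000128). In cells without Mki67 or Top2a UMIs it had 54.2, 43.7, 54.0 and 35.2 CPM in Sox2 progenitors and 104, 109.6, 100.3 and 95.8 CPM in Atoh1 cells. In Sox2 progenitors and Atoh1 cells the level of E2f1 was thus similar in cycling and other cells, and in either kind of cell 4 of 4 libraries were higher in Atoh1 cells. Eomes cells went another way, with 52.8, 103, 53.4 and 61.8 CPM without Mki67 or Top2a UMIs and 144, 141, 149 and 109 CPM in cycling cells of the e16 library, RL e13 replicate 2 and RL e14 replicates 1 and 2.

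Mcm6 was next, with 330.0, 296, 363 and 255 CPM in cycling Sox2 progenitors and 482, 432, 432 and 383 CPM in cycling Atoh1 cells. Its ranges did not overlap, and the difference was 0.48 ± 0.06 (SE, limma adjusted p = 0.000856). In cells without Mki67 or Top2a UMIs it averaged 263 ± 40.6 CPM and 255 ± 29.4 CPM (SD, n = 4 each), ranges that overlapped.

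Ccne1, the cyclin E that starts S phase, had 85.9, 61.5, 61.4 and 42.5 CPM against 122, 76.2, 80.1 and 75.6 CPM, which overlapped although each library was higher in Atoh1 cells (difference 0.47 ± 0.09 SE, limma adjusted p = 0.00605). Cdt1, the licensing factor, had 49.6, 41.9, 41.0 and 31.96 CPM against 62.4, 51.8, 63.1 and 53.0 CPM (0.45 ± 0.09, adjusted p = 0.00887), and Chaf1b, a subunit of the chromatin assembly factor, 83.3, 73.5, 93.9 and 50.2 CPM against 115, 89.0, 116 and 89.6 CPM (0.44 ± 0.09, adjusted p = 0.00939). The Cdt1 ranges did not overlap and the Chaf1b ranges did. Tyms, the thymidylate synthase, had no overlap between the 2 classes either.

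The helicase subunits did not move as a block. Mcm2, Mcm5, Mcm6 and Mcm7 were called higher in cycling Atoh1 cells, by 0.20 to 0.48, while Mcm3 (-0.06, adjusted p = 0.470) and Mcm4 (-0.05, adjusted p = 0.633) were below 0 in 3 of 4 libraries. Among cells with UMIs of no gate gene but their own, again without RL e13 replicate 1, Mcm6 (0.38), Mcm7 (0.26), Chaf1b (0.41) and E2f1 (1.25) were called higher, and Mcm3 and Mcm4 lower (-0.37 each). The count of 17 fell to 7 without RL e14 replicate 1, to 9 without RL e14 replicate 2 and to 10 without RL e13 replicate 2. E2f1 and Mcm6 were called in all 14 alternatives.

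Around these genes, 6 of 38 further replication genes were called higher, among them Wdhd1 (0.50), the checkpoint adaptor Clspn (0.49) and the dUTPase Dut (0.37), and 1 lower, Gmnn (-0.33). E2f2 (0.84), Tfdp2 (0.53) and E2f3 (0.41) were called higher and E2f5 lower (-0.93), of 12 genes. Of 15 G2 and M phase genes 4 were called lower (Cenpf -0.39, Ccnb2 -0.34, Kif11 -0.28 and Tpx2 -0.23), beside 16.7% of all genes tested. The 15 include Mki67 and Top2a, which defined the cycling cells. Sox2 progenitor markers summed to 1304 CPM in the cycling Atoh1 cells of RL e13 replicate 1 and to 425 to 553 CPM in those of the other RL libraries. The part of these markers and of phase composition in the differences of the 33 genes was not tested.

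**Figure D3:**
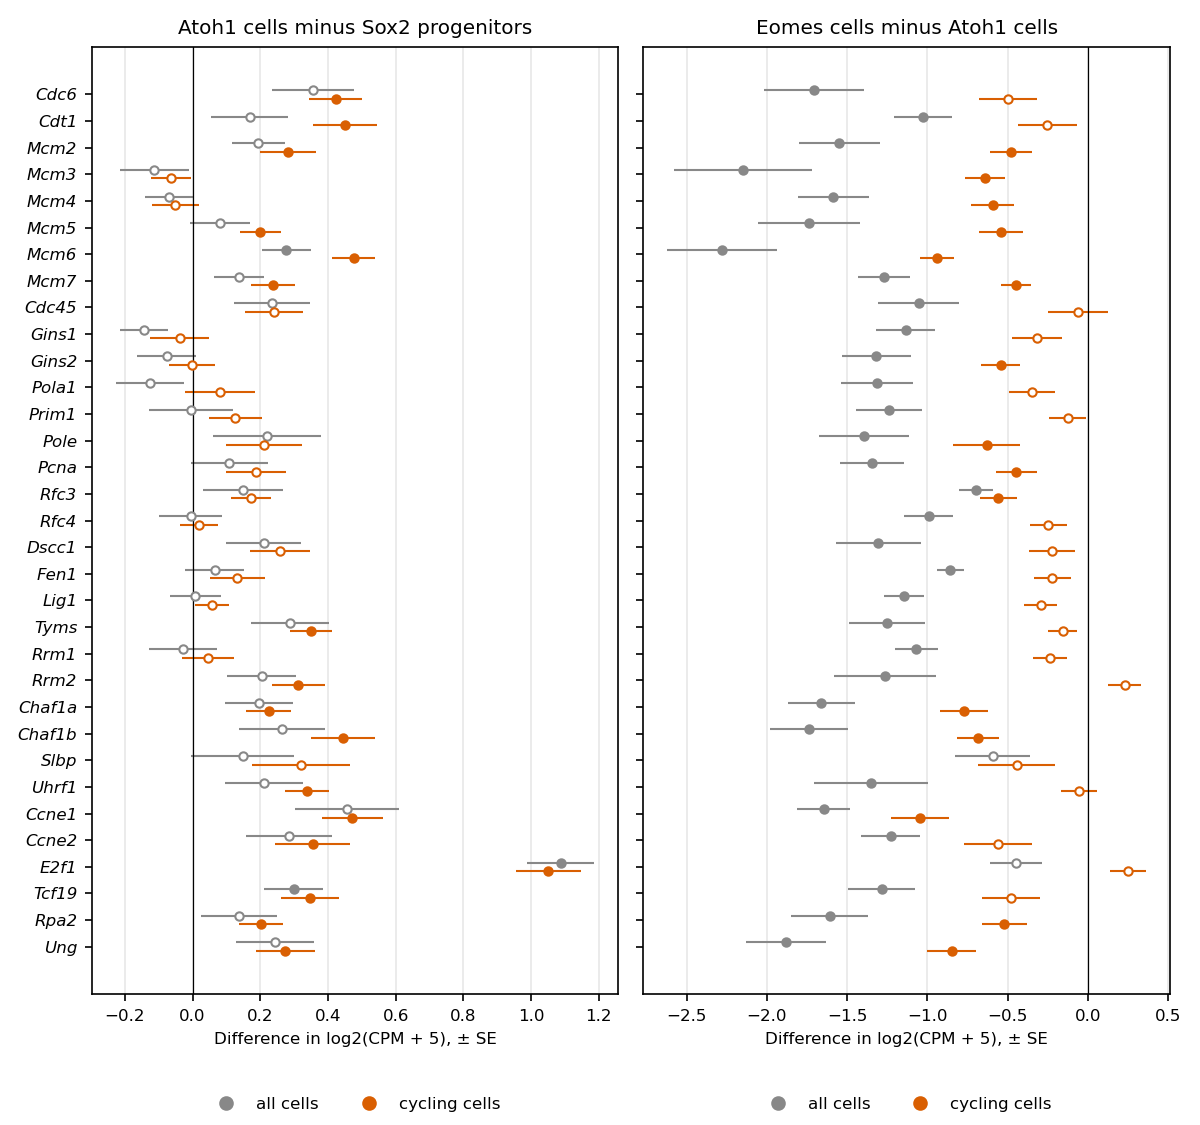
Difference of each of the 33 genes on the log2(CPM + 5) scale (points, ± SE) between Atoh1 cells and Sox2 progenitors (left) and between Eomes and Atoh1 cells (right), in all cells (grey) and cycling cells (orange); filled points have a limma adjusted p under 0.05. E2f1 stands apart on the left at 1.09 and 1.05, and on the right 31 filled grey points lie below 0 and only 15 orange points stay filled.

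Eomes cells were then compared with Atoh1 cells in the 4 libraries with 20 or more cells of both, namely the e16 library, RL e13 replicate 2 and both RL e14 libraries. The Atoh1 profiles of the RL libraries are shared with the comparison above. Of the 33 genes 31 fell and 0 rose by limma, and 0 were higher before adjustment, against 22.3% of all 8336 genes called lower and 23.7% higher. The median difference was -1.31 on the log2 scale, against 0.01 for all genes. All 8 licensing genes, 3 helicase activation genes, 3 polymerase genes, 4 clamp and clamp loader genes, 2 Okazaki fragment genes and 3 nucleotide supply genes were called lower, as were both Rpa2 and Ung.

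The largest fall was that of Mcm6, from 247, 363, 362 and 332 CPM in Atoh1 cells of the e16 library, RL e13 replicate 2, RL e14 replicate 1 and RL e14 replicate 2 to 14.5, 95.5, 136 and 69.99 CPM in Eomes cells (-2.28 ± 0.34 SE, limma adjusted p = 0.00256). Mcm3 had 166, 125, 125 and 126 CPM in Atoh1 cells and 5.80, 42.3, 51.0 and 29.1 CPM in Eomes cells (-2.15 ± 0.43, adjusted p = 0.00733). The groups did not overlap for either subunit, and the e16 Eomes cells, whose median depth was 10261 UMIs against 15401 to 19109 in the RL libraries, held the least.

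Ung had 61.5, 63.2, 68.2 and 65.6 CPM in Atoh1 cells against 4.34, 19.7, 25.1 and 13.3 CPM in Eomes cells (-1.88 ± 0.25 SE, limma adjusted p = 0.00177). Mcm5 had 141, 115, 122 and 131 CPM against 13.4, 38.0, 67.6 and 37.4 CPM (-1.74 ± 0.32, adjusted p = 0.00512), and Chaf1b 64.0, 67.6, 73.9 and 63.8 CPM against 5.39, 20.6, 27.5 and 20.4 CPM (-1.74 ± 0.24, adjusted p = 0.00207). Every Eomes value of these 3 genes lay below every Atoh1 value.

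Only E2f1 and Slbp, which binds the stem-loop of histone mRNA, were not called. E2f1 had 125, 109, 115 and 101 CPM in Atoh1 cells and 57.9, 112, 86.7 and 75.3 CPM in Eomes cells (-0.45 ± 0.16 SE, limma adjusted p = 0.0623), and in RL e13 replicate 2 the Eomes cells held slightly more. Slbp had 10.3, 26.6, 17.9 and 16.6 CPM against 10.7, 12.3, 14.01 and 3.91 CPM (-0.59 ± 0.23, adjusted p = 0.0783). Among cells with UMIs of no gate gene but their own, in the 3 RL libraries only, E2f1 was called lower too (-0.58, adjusted p = 0.000233).

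Of 37 further replication genes 33 were called lower, led by Clspn (-2.01), the chromatin factor Atad2 (-1.81) and the ubiquitin ligase subunit Dtl (-1.69), and 13 of 15 G2 and M phase genes were called lower. Among 5 CDK inhibitor genes Cdkn1a (1.62), Cdkn1b (0.96) and Cdkn2d (0.93) were higher and Cdkn2c (-1.31) and Cdkn1c (-0.35) lower. The pocket protein gene Rb1 was higher (0.78), and E2f3 (-0.82), E2f6 (-0.75) and 3 others of 9 E2F and pocket protein genes were lower. Of the 31 genes called lower, 28 were called in every alternative setting.

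To set aside the smaller share of dividing cells among Eomes cells, the cycling cells of both classes were compared in RL e13 replicate 2, RL e14 replicate 1 and RL e14 replicate 2, with 37, 33 and 22 cycling Eomes cells. Of the 33 genes 15 fell and 0 rose, against 9.89% of all 8118 genes called lower and 10.3% higher. The median difference was -0.45, against -0.01 for all genes. The called genes were 6 of 8 licensing genes (all but Cdc6 and Cdt1), Rpa2 and Ung, Chaf1a and Chaf1b, Pcna and Rfc3, Gins2, Pole and Ccne1. None of Tyms, Rrm1 and Rrm2, which supply nucleotides, was called, nor were Fen1 and Lig1, which act in the maturation of Okazaki fragments. Lig1 (-0.30, limma adjusted p = 0.0524) and Cdc6 (-0.50, adjusted p = 0.0677) were near the threshold. Cdc6 fell further than Mcm7 and Pcna (-0.45 each), which were called. Tyms (-0.16) and Fen1 (-0.22) had smaller differences.

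Ccne1 fell most, from 76.2, 80.1 and 75.6 CPM in cycling Atoh1 cells to 21.3, 45.1 and 43.2 CPM in cycling Eomes cells (-1.04 ± 0.18 SE, limma adjusted p = 0.000669), and it was at 20.1 CPM in the 110 cycling Eomes cells of the e16 library, which were not in the test. Mcm6 fell from 432, 432 and 383 CPM to 176, 273 and 204 CPM (-0.94 ± 0.10, adjusted p = 1.1e-05), with 99.4 CPM in the e16 library. Both genes had no overlap, and the e16 values lay below all others.

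Ung fell from 63.8, 73.4 and 67.8 CPM to 33.4, 38.4 and 35.3 CPM (-0.85 ± 0.15 SE, limma adjusted p = 0.000795), with 17.6 CPM at e16. Chaf1a had 86.8, 92.4 and 81.2 CPM against 38.9, 65.6 and 45.1 CPM (-0.77 ± 0.15, adjusted p = 0.00157), and its partner Chaf1b 89.0, 116 and 89.6 CPM against 45.7, 73.4 and 60.4 CPM (-0.68 ± 0.13, adjusted p = 0.00163). No cycling Eomes value reached the lowest cycling Atoh1 value of its gene, and at e16 the subunits had 41.9 and 43.0 CPM.

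E2f1 and Rrm2 were the only 2 genes with a difference above 0, and both had a limma p under 0.05 before adjustment but not after it. E2f1 had 141, 149 and 109 CPM in cycling Eomes cells against 106, 125 and 100.3 CPM in cycling Atoh1 cells (0.25 ± 0.11 SE, limma adjusted p = 0.134), with 144 CPM at e16. Rrm2, the small subunit of ribonucleotide reductase, had 292.5, 478 and 372 CPM against 319, 342 and 295 CPM (0.23 ± 0.10, adjusted p = 0.134), with 328 CPM at e16. It was called higher without RL e13 replicate 2 (0.40, adjusted p = 0.015, beside 10 genes called lower) and when cycling cells were taken at 200 CPM or more of Mki67 and Top2a (0.32, adjusted p = 0.044, beside 11). Without the library as a block the count of genes called lower was 4.

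**Figure D4:**
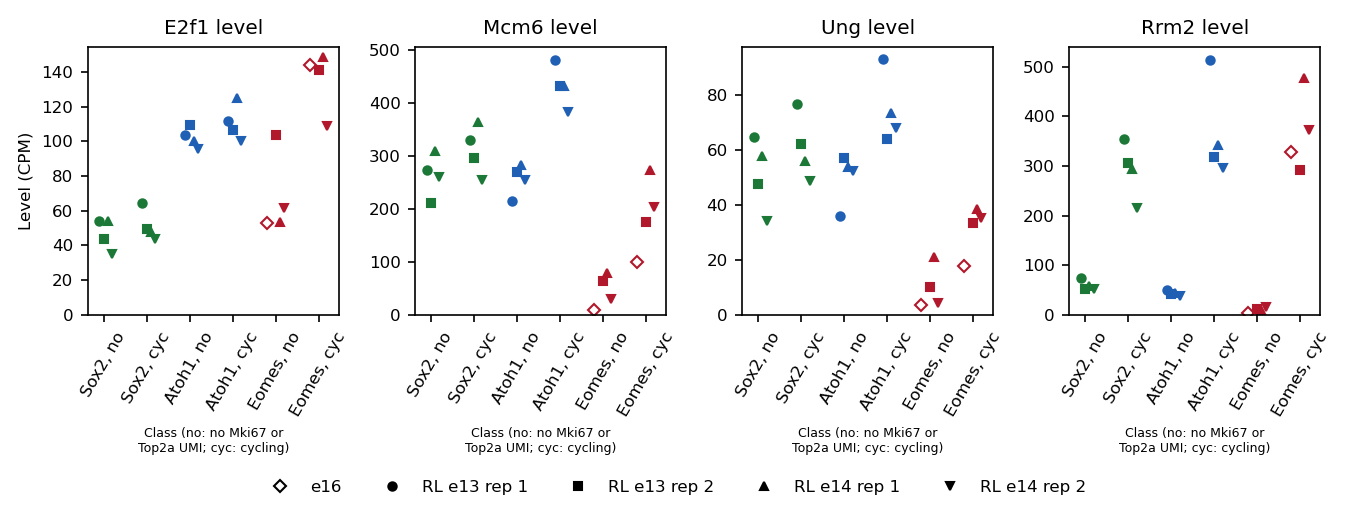
Level in CPM of E2f1, Mcm6, Ung and Rrm2 in Sox2 progenitors, Atoh1 cells and Eomes cells, each divided into cells without Mki67 or Top2a UMIs and cycling cells; each symbol is 1 library. E2f1 follows class more than the division by Mki67 and Top2a in Sox2 progenitors and Atoh1 cells. Rrm2 is at 74 CPM or less in every class without Mki67 or Top2a UMIs and above 200 CPM in cycling cells. Mcm6 and Ung are lower in cycling Eomes cells (99.4 to 273 and 17.6 to 38.4 CPM) than in cycling Atoh1 cells.

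The cycling Eomes cells differed in other ways as well. Of 38 further replication genes 12 were called lower, among them Dtl (-0.78), the polymerase delta subunit Pold2 (-0.70) and Clspn (-0.61), and of 12 E2F and pocket protein genes E2f3 (-0.72), E2f5 (-0.60) and E2f4 (-0.50) were lower. The CDK inhibitor genes Cdkn1a (1.55), Cdkn1b (0.92) and Cdkn2d (0.81) were higher, of 5 tested. Of 15 G2 and M phase genes, among them the Mki67 and Top2a of the cycling gate, Ube2c (0.90), Aurka (0.62) and Cdc20 (0.40), which act in mitosis, were higher and 0 were lower. Neuronal differentiation genes summed to 4999 to 7049 CPM in cycling Eomes cells and 1568 to 1884 CPM in cycling Atoh1 cells, and the part of this and of the phase composition in the lower replication genes was not tested.

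How the 33 genes are spread over the cell cycle was described by sorting thinned cells of each library into 4 categories: cells with 10 or more UMIs of the list (leaving out the gene described), cells with 10 or more UMIs of the 15 G2 and M phase genes, cells with both and cells with neither. Cells high in the S phase list only numbered 33 to 37 in the e16 library and 151 to 430 in the RL libraries. All 33 genes were lower in cells high in neither list than in cells high in the S phase list only, in each of the 5 libraries, by a median of -2.62 on the log2(CPM + 5) scale and a range of -3.57 (Cdc6) to -1.01 (E2f1). E2f1 averaged 62.6 CPM in cells high in neither list and 133 CPM in cells high in the S phase list only, the smallest relative difference of the list.

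Cells high in both lists, compared with cells high in the S phase list only, divided the genes into 12 that were lower in all 5 libraries, 12 that were higher in all 5 and 9 that were mixed. The lower group held 7 of the 8 licensing genes, all but Mcm5, together with Ung, Rpa2, Gins2, Rfc3 and Chaf1b. The higher group held all 3 nucleotide supply genes, all 3 polymerase genes, both Okazaki fragment genes, Cdc45, Gins1, Rfc4 and Tcf19. Since the categories were made from the other members and the same cells, these values are a description without a test.

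Ung had the widest gap, at 157 ± 19.9 CPM in cells high in the S phase list only and 33.8 ± 7.48 CPM in cells high in both (SD, n = 5, difference -2.07, range -2.30 to -1.78). Mcm3 went from 278 to 159 CPM (-0.79), Mcm4 by -0.78, Cdc6 from 68.2 to 37.7 CPM (-0.76) and Mcm2 by -0.73. At the other end Rrm2 went from 237 to 506 CPM (1.08, range 0.60 to 2.12), Rrm1, the large subunit of the same enzyme, from 165 to 327 CPM (0.97), Tyms from 181 to 342 CPM (0.90) and Pole, the catalytic subunit of polymerase epsilon, from 19.3 to 38.5 CPM (0.86). Among cells high in the S phase list, most genes that load the helicase and Ung were thus higher where G2 and M phase transcripts were few, and the genes that supply nucleotides and copy DNA where they were many.

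In cells high in the G2 and M phase list only, 29 of the 33 genes were lower than in cells high in the S phase list only in all 5 libraries. The median over the 33 genes was -1.92, and 4 were mixed, namely Rrm1, Gins1, Rrm2 and Pole. Rrm1 (-0.04), Gins1 (-0.23) and Rfc4 (-0.29) had the smallest mean differences, and Ung (-4.22) the widest. Genes that were higher in cells high in both lists had mean differences below 0 here. Among them were Rrm2 (-0.64) and Pole (-0.85), which were mixed, and Tyms (-0.77) and Pola1 (-1.94), which were lower in all 5 libraries. The 10 genes with an E2F match in the promoter include Mcm6 and Mcm5 above. Between cells high in both lists and cells high in the S phase list only, 7 of these 10 had a mean difference below 0 (median -0.45). Of the 17 genes without a match 8 did (median 0.13), while Rrm2, also without a match, was at 1.08. This rule is looser than lower in all 5 libraries, by which Mcm5 was mixed. The difference between cycling Atoh1 cells and cycling Sox2 progenitors had medians of 0.22 in genes with a match and 0.27 in genes without. Of the genes with a match, Cdc6, Cdt1, Mcm3, Mcm5, Mcm6 and Mcm7 are licensing genes. The division by motif thus overlaps that by role, and the part of either was not tested.

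**Figure D5:**
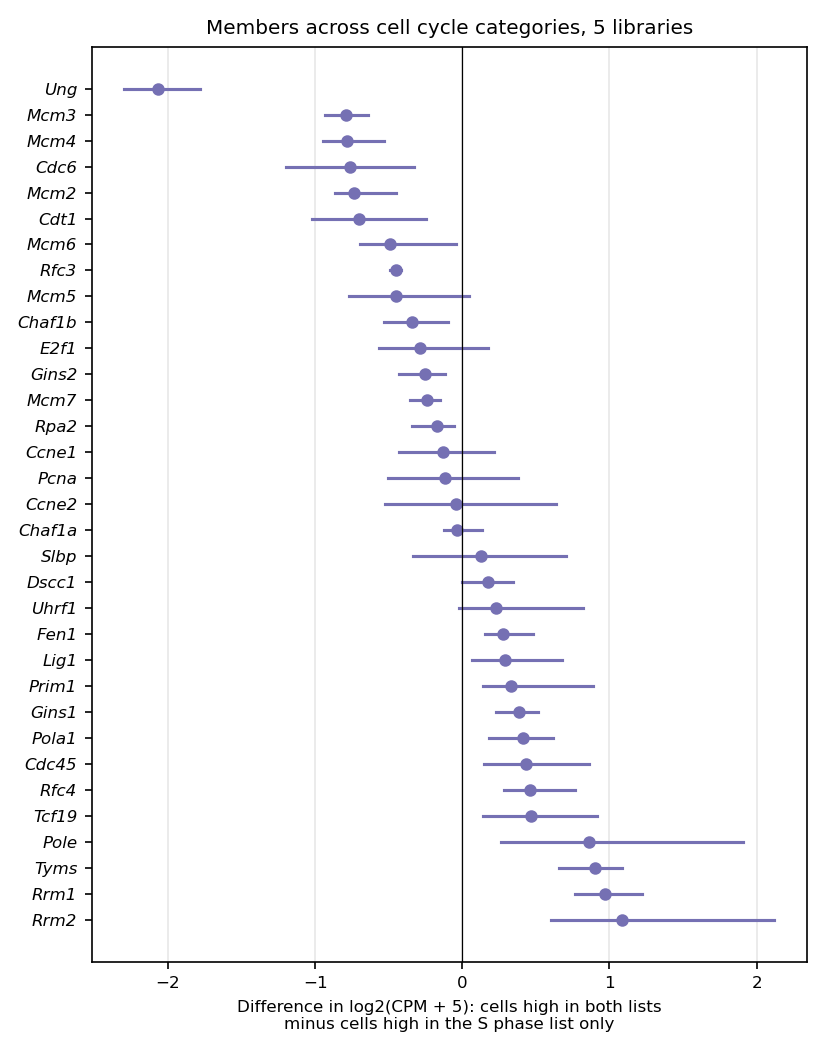
Difference on the log2(CPM + 5) scale between cells high in both the S phase and the G2 and M phase list and cells high in the S phase list only, for each of the 33 genes; points are the mean of 5 libraries and lines the range. The genes run from Ung at -2.07 over the licensing genes to Rrm1 at 0.97 and Rrm2 at 1.08.

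The RL e14 libraries were compared with the RL e13 libraries within a class, 2 against 2 by title. None of the 33 genes was called in Sox2 progenitors or in Atoh1 cells by limma at an adjusted p under 0.05, where 0% of 8402 and 0% of 8185 genes were called. Before adjustment, limma put 1 of the 33 genes under 0.05 in Sox2 progenitors, Pola1 (-0.63, adjusted p = 0.516), and 789 of all genes. In Atoh1 cells it put 3 there, Slbp (-0.70, adjusted p = 0.281), Pcna (0.42, adjusted p = 0.282) and Pola1 (-0.45, adjusted p = 0.284), and 1327 of all genes. Median differences were -0.24 in Sox2 progenitors and -0.01 in Atoh1 cells.

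Pola1, the catalytic subunit of the priming polymerase, had 67.0 and 65.1 CPM in the Sox2 progenitors of the RL e13 libraries and 53.2 and 31.1 CPM in those of the RL e14 libraries, and 62.0 and 50.7 against 43.0 and 36.8 CPM in Atoh1 cells. Its groups did not overlap in either class, and the difference was not called after adjustment. Without RL e13 replicate 2, whose age tag reads e14, 1 library is left to stand for e13, so no calls are given for that setting. Pola1 then had 62.0 CPM in Atoh1 cells against 43.0 and 36.8 CPM in the RL e14 libraries. The library left, RL e13 replicate 1, was the RL library whose Atoh1 cells held the most Sox2 progenitor markers. The comparison of RL e14 with RL e13 libraries cannot tell age apart from library.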

How the data were processed

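Libraries of single cells from developing mouse cerebellum were made with 3′ Chromium chemistry, version v3 or v3.1, per the labels' protocols. The build mm10 and Cell Ranger appear per the submitters' processing notes. The authors deposited natural log values, ln(1 + 10000 × UMIs / total UMIs of the cell), a unit read from the values: back-transformed they sum to 10000 in each cell, and UMI counts came out whole for 100% of 29540669 values (tolerance 0.01). Filters on cells and genes and the treatment of doublets were not given in the sources used here, and no doublet caller was run. 4 of 5 batch names matched a title, and the batch left was taken as the EomesCreER e16 library. 0 columns of other samples were present. Libraries held 13607965 to 33502151 UMIs. No label ties a library to its own animals. The p-values therefore reflect the spread between these libraries alone, which may be technical.

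Profiles are means over 20 or more cells scaled to 1000000 (CPM). Genes averaging at least 10 CPM were tested on log2(CPM + 5) with limma 3.58.1 (trend, R 4.3.3), the library as a block in class comparisons, and Benjamini-Hochberg adjustment over all genes at 0.05. Sums, shares (cells thinned to 5000 UMIs with Python 3.11.15 and numpy 2.4.6) and cell cycle categories carry no test. Full values are given for the 5 called genes with the largest differences per comparison and direction, and for up to 3 called genes of each further list. Genes chosen outside this rule (Mcm6 and E2f1 beyond their comparisons, the genes of the cell cycle categories, Rrm2, Pola1, Slbp) were named after their values were seen. The members and lists were chosen with earlier results of these data known. On simulated data (200 genes changed, dispersion 0.03), a log2 change of 1 was recovered for 95.5%, 92.5%, 97.0% and 67.2% of changed genes in the 4 class comparisons (Atoh1 against Sox2, Eomes against Atoh1, and the same in cycling cells) and 62.7% and 68.7% between ages, and a change of 0.5 for 0% to 22.7%. Gene positions come from GENCODE M21, whose build is mm10 (GRCm38). Of the 33 genes 15 overlap another annotated gene; how such reads were counted was not given in the sources used here.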

Additional observations from a re-analysis of the deposited data

Results flagged for a closer look

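In 7 cases every library of a group moved one way and every library of the other group the opposite way under the same contrast. The differences between groups were not tested, and with 1 to 3 libraries a group such splits can arise by chance. Between Atoh1 cells and Sox2 progenitors, the mean log2 difference was -0.10 in the RL e13 libraries and 0.23 in the RL e14 libraries for Fen1 (0.33 apart), -0.08 and 0.30 for Pcna (0.37 apart) and -0.03 and 0.46 for Pole (0.49 apart). Between cycling Atoh1 cells and cycling Sox2 progenitors, Rfc4 had -0.04 and 0.08 (0.12 apart). Between cycling Eomes and cycling Atoh1 cells, Cdc45 had -0.73 in RL e13 replicate 2 and 0.27 in the RL e14 libraries (0.996 apart), and Rrm2 -0.12 and 0.40 (0.52 apart). Between Eomes and Atoh1 cells, Slbp had 0.04 in the e16 library and -0.81 in the RL libraries (e16 set against RL, -0.85).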

How the results depend on the processing

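The fall of the 33 genes from Atoh1 to Eomes cells kept 28 to 33 called genes in every setting run. For Atoh1 cells against Sox2 progenitors (3 higher, 0 lower), the exclusive gate (UMIs of no gate gene but the cell's own), which also dropped RL e13 replicate 1 (18 Atoh1 cells), gave 1 higher and 3 lower, against 9 higher without that library under the main gate, the gate on thinned cells 5 higher, and 1 was higher without the library block and 1 without the 5% of cells with the most UMIs. Leaving out a library gave 1 to 9 higher. In cycling cells (17 higher, 0 lower), the exclusive gate, with the same library dropped, gave 4 higher and 2 lower and reversed Rrm2 (-0.076, adjusted p = 0.572), and 4 were higher without the library block and 7 to 13 without a library. For cycling Eomes against cycling Atoh1 cells (15 lower, 0 higher), 4 were lower without the block and 9 with no filter on low values, 1 was higher with cycling cells at 200 CPM, and leaving out a library gave 10 to 18 lower and 0 to 1 higher; the exclusive gate and a minimum of 50 cells could not be fitted. Between ages, leaving out a library left 1 library in a group, so no count of calls is given. With the replicate number as a block between ages, 0 of the 33 genes were called in either class; same-numbered libraries' deviations correlated at 0.15 in Sox2 progenitors and 0.06 in Atoh1 cells, and nothing says that the numbers pair libraries. Mean RL shares of Sox2, Atoh1 and Eomes cells were 72.6%, 74.3% and 35.1% at 5 or more UMIs and 27.3%, 32.3% and 11.1% at 20 or more, and in e16 Eomes cells 14.05% and 1.26%. Under the exclusive gate, chosen for the sums after seeing the data, the summed level was 2951 CPM in Sox2 (2789 in the 3 libraries with both classes), 2710 CPM in Atoh1 and 775 CPM in Eomes cells, so that Sox2 progenitors then stood above Atoh1 cells. The causes were not tested. Rare transcripts limit the cycling Eomes values, which rest on 22 to 37 cells a library.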
